A study of Mus musculus with 6 samples.

Results

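The 10 genes described here belong to the Notch pathway: the receptors Notch1, Notch2 and Notch3, the ligands Dll1, Jag1 and Dner, and the target genes Hes1, Hes5, Hey1 and Hey2. They were chosen by name from the 16411 genes listed, and all 10 had UMIs (unique molecular identifiers, that is, counted molecules) in the cells analysed. Single-cell RNA-seq was performed on the dissociated hypothalamus of male ob/ob mice, which lack leptin and are obese and diabetic. Every mouse carried the same genotype, was 11 weeks of age, and had received 3 µg of FGF1 R50E into a cerebral ventricle 5 days before it was killed. FGF1 R50E is fibroblast growth factor 1 with a substitution that impairs its binding to integrin. The labels name 6 mice in this single group, and the table held 20151 cells of 4 of them, mice 3, 4, 30 and 34. Cells of other groups were not used here, so no effect of the treatment was estimated, and the question was how the 10 genes are distributed over the 9 cell types that the authors labelled.

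In the Notch pathway, a ligand on one cell binds a receptor on its neighbour, the receptor is cut, and its intracellular part enters the nucleus, where it joins the DNA-binding protein RBPJ and switches on target genes. Most of the best known targets are repressors of the Hes and Hey families, which hold back differentiation. In the brain the pathway is known for keeping neural stem cells and glial precursors undifferentiated, for astrocyte identity, and for patterning blood vessels.

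Promoter sequences of 8 of the 10 members were found in the RefSeq table (build GRCm38.p6), which gives 250 bases before and 50 bases after a gene's start. The core sequence bound by RBPJ, GTGGGAA, was searched on both strands. The promoters of Hes5 and Hey2 are shown because each held a pair of such cores. Of all 32851 promoters of this length, 6.38% held at least 1 match and 0.256% held 2 or more. The first 260 bases of each window, 5′ to 3′ on the strand of the gene and ending 10 bases after the start, are printed with the matches in capitals. The Hes5 window is chr4:154960673-154960932 on the plus strand, with matches starting at -226 (on the opposite strand) and -83. The Hey2 window is chr10:30842774-30843033 on the minus strand, with matches starting at -207 (on the opposite strand) and -4.
Hes5: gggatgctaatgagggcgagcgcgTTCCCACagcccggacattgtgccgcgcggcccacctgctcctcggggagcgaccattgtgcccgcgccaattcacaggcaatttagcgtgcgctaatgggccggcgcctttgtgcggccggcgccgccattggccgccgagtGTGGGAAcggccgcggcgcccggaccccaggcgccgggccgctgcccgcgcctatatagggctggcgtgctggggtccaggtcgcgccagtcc
Hey2: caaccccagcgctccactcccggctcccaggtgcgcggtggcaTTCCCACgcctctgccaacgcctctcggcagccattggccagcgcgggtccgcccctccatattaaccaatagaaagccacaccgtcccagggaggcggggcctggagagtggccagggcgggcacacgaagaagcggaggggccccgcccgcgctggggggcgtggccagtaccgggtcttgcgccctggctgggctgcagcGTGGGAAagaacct
The promoters found for Notch1, Notch2, Notch3, Dll1, Jag1 and Dner held no match, which says only that these letters are not in those windows. The positions are a description of the reference sequence, and no binding was measured.

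The UMIs of each gene were added up over the cells of a type in a mouse. A level is the gene's UMIs in such a sum scaled to the UMI total of that sum (CPM), and is given as the mean ± SD over the 4 mice. The cells numbered 5909 astrocytes, 4490 tanycytes (elongated glia of the third ventricle's floor), 1530 ependymal cells (ciliated cells of the ventricle wall), 1261 oligodendrocyte precursor cells (OPC), 681 committed oligodendrocyte precursors (COP), 4566 oligodendrocytes, 1266 endothelial cells, 380 microglia and 68 vascular and leptomeningeal cells (VLMC). The median depth of a cell ranged from 851 UMIs in astrocytes to 1771 in COP. The summed level of each list of marker genes was highest, in all 4 mice, in the type it marks. Some single markers went the other way in the pooled counts. The tanycyte markers Vim and Scn7a had 751 and 93.8 CPM in ependymal cells and 579 and 40.2 CPM in VLMC, against 502 and 22.3 CPM in tanycytes. The oligodendrocyte marker Mbp had 8854 CPM in COP against 7738 CPM in oligodendrocytes. COP also held 30689 to 36879 CPM of the oligodendrocyte list, and the endothelial label held 3508 to 3878 CPM of a list of 8 mural cell genes. Of the cells, 97.2% lay in the main cluster of their labelled type, so the labels rest on the same counts that are compared here, and the tests between types are descriptive. Of 19954 cell barcodes, 194 were found in more than 1 mouse.

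**Figure D1:**
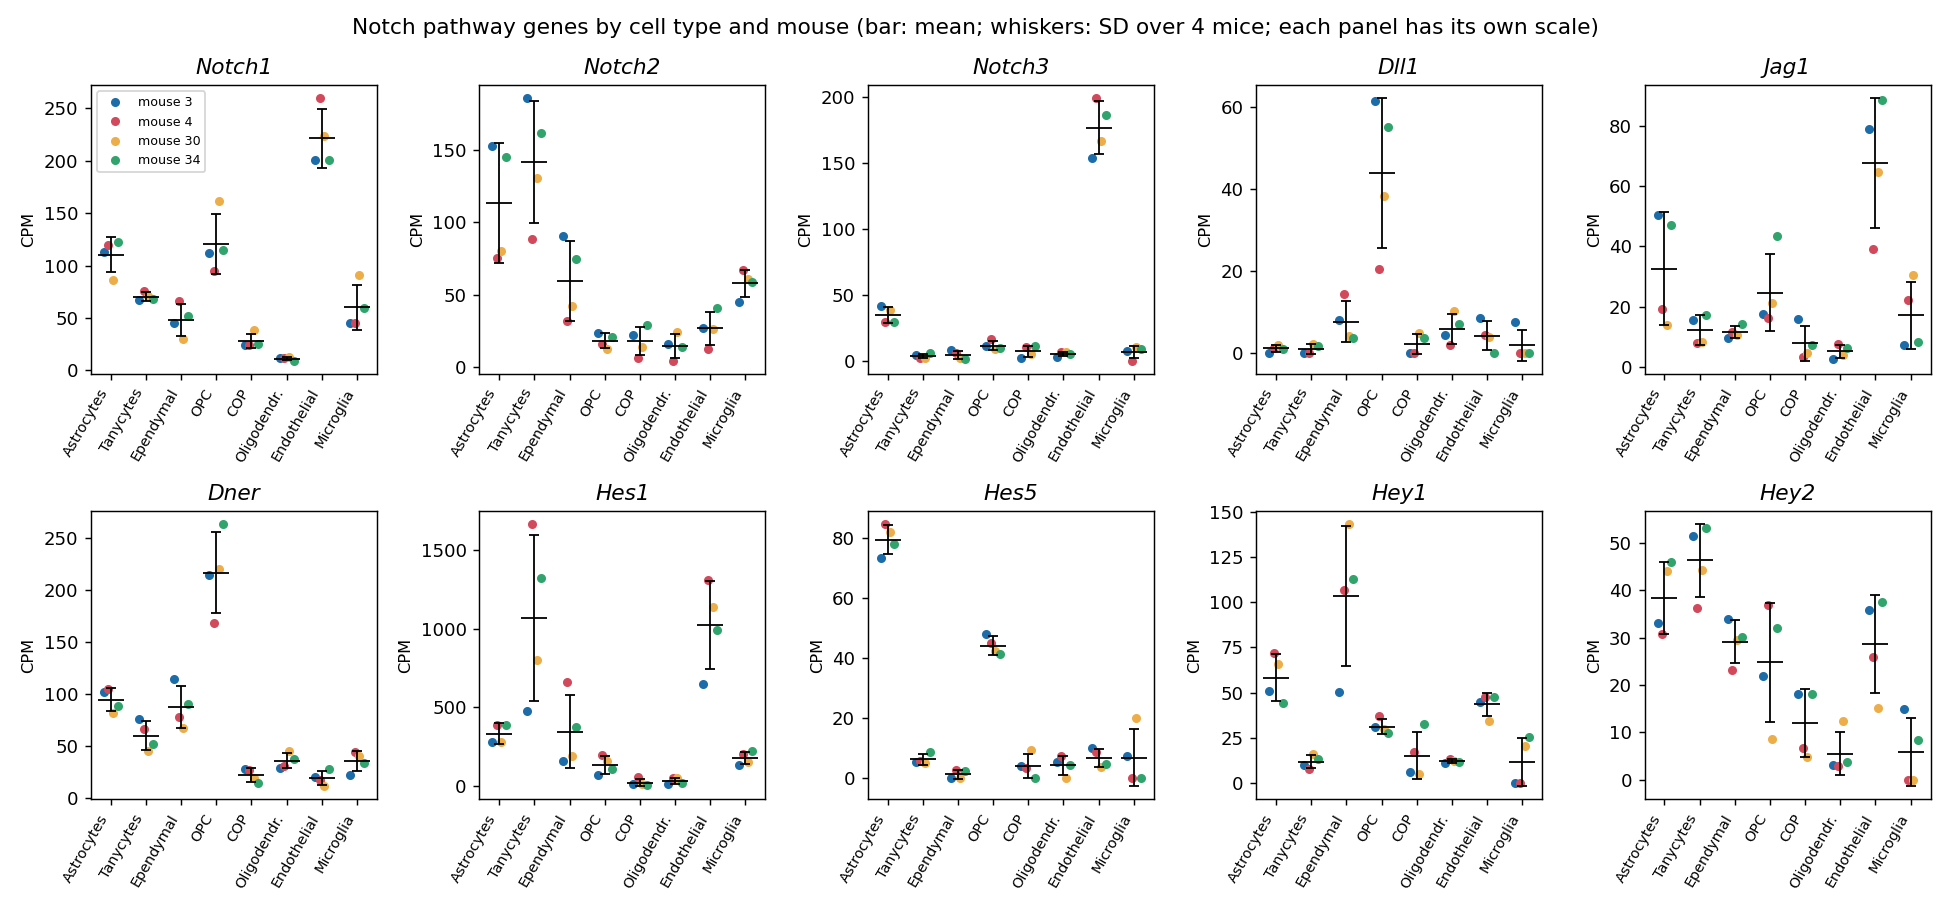
Level in CPM (y axis) of each of the 10 genes in 8 cell types (x axis), with a coloured point per mouse, the mean as a bar and the SD over 4 mice as whiskers; each panel has its own scale. Dll1 was highest in OPC at 43.8 CPM, Hes5 in astrocytes at 79.6 CPM and Notch3 under the endothelial label at 177 CPM, whereas Hes1 was about as high in tanycytes as in endothelial cells.

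Among the receptors, in the 8 types with enough cells for a test, Notch1 and Notch3 were highest under the endothelial label, which also held cells with mural markers, and Notch2 in tanycytes and astrocytes. Notch1 (chr2:26457903-26516663, minus strand), a receptor used by many cell types, had 200 CPM in mouse 3, 260 in mouse 4, 224 in mouse 30 and 201 in mouse 34 in endothelial cells, a mean of 221 ± 28.0 CPM (SD, n = 4). It was lower at 121 ± 28.7 CPM in OPC, and no mouse overlapped between these types (log2 fold change of OPC over endothelial cells -1.12 ± 0.15 SE, adjusted p = 1.15e-09, edgeR). Down the order, astrocytes had 110 ± 16.6 CPM of Notch1, tanycytes 70.3 ± 4.11, microglia 59.97 ± 21.9, ependymal cells 48.2 ± 15.3, COP 27.9 ± 6.98 and oligodendrocytes 11.0 ± 1.31. No neighbouring types below OPC in this order differed by more than 2-fold with an adjusted p below 0.05, although the mice of astrocytes and tanycytes, and those of COP and oligodendrocytes, did not overlap.

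Notch2 (chr3:98013527-98150361, plus strand), a receptor known from glia and their precursors, reached 142 ± 42.0 CPM in tanycytes (186, 88.5, 131 and 161 CPM in mice 3, 4, 30 and 34) and 114 ± 41.2 CPM in astrocytes (153, 75.8, 80.1 and 145 CPM). Tanycytes and astrocytes overlapped and were not called different (log2 fold change 0.25 ± 0.11, adjusted p = 0.0510), though the tanycytes were higher within each of the 4 mice. Ependymal cells had 59.8 ± 27.4 CPM, microglia 57.9 ± 9.32, endothelial cells 27.0 ± 11.4, OPC 18.5 ± 4.95, COP 18.0 ± 9.59 and oligodendrocytes 14.97 ± 8.21. The oligodendrocyte lineage was thus low in Notch2 from OPC onwards, while Notch1 was high in OPC and low from COP onwards.

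Notch3 (chr17:32120820-32166852, minus strand), a receptor best known from the mural cells that wrap blood vessels, had 154, 199, 167 and 186 CPM under the endothelial label in mice 3, 4, 30 and 34, a mean of 177 ± 20.1 CPM. Astrocytes came next with 41.3, 29.6, 38.0 and 29.5 CPM, a mean of 34.6 ± 5.99 CPM, and OPC followed at 11.3 ± 3.58 CPM. These 3 types were separate from one another in every mouse. The remaining types lay between 3.60 ± 1.70 CPM in tanycytes and 6.96 ± 4.28 CPM in COP and overlapped. A gene on the opposite strand, Gm17276, overlaps Notch3, as A930024N18Rik does Dll1, and whether the authors' counting used the strand is not given in the sources used here.

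Among the ligands, Dll1 (chr17:15367354-15376872, minus strand), a Delta-family ligand, was highest in OPC, which held 66 of its 130 UMIs. OPC had 61.3 CPM in mouse 3, 20.5 in mouse 4, 38.2 in mouse 30 and 55.1 in mouse 34, a mean of 43.8 ± 18.3 CPM. The lowest OPC value lay above the highest value of any other type with enough cells for a test, which was 14.4 CPM in ependymal cells of mouse 4. Ependymal cells had 7.59 ± 4.98 CPM, and the difference from OPC was called (log2 fold change -2.56 ± 0.40, adjusted p = 9.85e-08). COP held 2 UMIs of Dll1 in all, against 66 in OPC, so that the pooled level of OPC was 30.7 times that of COP (95% exact interval 8.18 to 259, counting error only). Astrocytes held 4 UMIs and tanycytes 5 UMIs of Dll1.

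Jag1 (chr2:137081456-137116644, minus strand), a Jagged-family ligand, was highest under the endothelial label, which also held cells with mural markers. The label had 78.8, 39.0, 64.5 and 88.3 CPM in mice 3, 4, 30 and 34 and a mean of 67.6 ± 21.5 CPM. Astrocytes had 50.3, 19.3, 14.01 and 47.0 CPM, a mean of 32.6 ± 18.7 CPM, and OPC 24.7 ± 12.8 CPM. The endothelial label was higher than astrocytes within each mouse, yet the mice of the types overlapped and the difference stayed under the 2-fold limit (log2 fold change 0.87 ± 0.19, adjusted p = 2.04e-05). Tanycytes (12.4 ± 4.88 CPM) and ependymal cells (11.6 ± 2.06 CPM) were not called different from each other, and oligodendrocytes had the lowest mean, 5.20 ± 2.26 CPM.

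Dner (chr1:84369839-84696221, minus strand), a transmembrane protein with Delta-like repeats that has been described as an atypical Notch ligand and is abundant in neurons, was highest in OPC, with 215, 168, 221 and 264 CPM in mice 3, 4, 30 and 34 and a mean of 217 ± 39.2 CPM. Astrocytes had 94.6 ± 10.9 CPM, ependymal cells 87.6 ± 20.4, tanycytes 60.1 ± 14.01, oligodendrocytes 35.9 ± 7.23, microglia 35.4 ± 9.71, COP 22.2 ± 6.54 and endothelial cells 19.3 ± 6.84. No mouse overlapped between OPC and astrocytes, although the log2 fold change of 0.91 ± 0.13 (adjusted p = 1.14e-08) was under the limit. A list of 6 neuronal genes summed to 412 to 652 CPM in OPC, 245 to 406 CPM in astrocytes and 129 to 289 CPM in COP. The list summed to 265 to 420 CPM in endothelial cells, 277 to 487 CPM in oligodendrocytes and 261 to 536 CPM in microglia, where Dner was low, and the part of neuronal RNA in these Dner values was not tested.

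Among the targets, in the 8 types with enough cells for a test, Hes1 (chr16:30064384-30067796, plus strand), a repressor that responds to Notch and to other signals, was high in 2 types that share no lineage. Tanycytes had 476 CPM in mouse 3, 1665 in mouse 4, 803 in mouse 30 and 1322 in mouse 34, a mean of 1066 ± 530 CPM, and endothelial cells had 647, 1308, 1138 and 989 CPM, a mean of 1021 ± 281 CPM. These types overlapped, and the log2 fold change of tanycytes over endothelial cells was -0.03 ± 0.10 (adjusted p = 0.805). Ependymal cells followed at 346 ± 232 CPM and astrocytes at 332 ± 64.7 CPM, microglia at 177 ± 39.8 and OPC at 133 ± 56.0. Oligodendrocytes (31.6 ± 19.95 CPM) and COP (20.3 ± 22.7 CPM) were lowest.

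Hes5 (chr4:154960923-154962371, plus strand), a repressor regarded as one of the most direct readouts of Notch signalling in neural cells, was found in astrocytes and OPC and was near 0 elsewhere. Astrocytes had 73.4, 84.8, 82.1 and 78.0 CPM in mice 3, 4, 30 and 34, a mean of 79.6 ± 4.96 CPM, and OPC had 48.2, 45.1, 42.5 and 41.3 CPM, a mean of 44.3 ± 3.05 CPM. Neither type overlapped with the other or with any other type tested, and the spread between mice was small in both. The other 6 types with enough cells ranged from 1.32 ± 1.54 CPM in ependymal cells to 6.94 ± 9.57 CPM in microglia, which rest on 3 UMIs each. Over the pooled cells, the astrocyte level of Hes5 was 58.6 times that of ependymal cells (95% exact interval 19.9 to 285) and 11.8 times that of tanycytes (interval 8.45 to 17.04).

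Hey1 (chr3:8663359-8667256, minus strand), a repressor of the Hey family, was highest in ependymal cells, with 50.1, 107, 143 and 113 CPM in mice 3, 4, 30 and 34 and a mean of 103 ± 38.9 CPM. Astrocytes had 58.2 ± 13.01 CPM, endothelial cells 43.4 ± 6.35 and OPC 31.2 ± 4.02. Ependymal cells of mouse 3 lay within the range of the astrocytes, and the difference between these types was not called (log2 fold change of astrocytes -0.69 ± 0.19, adjusted p = 0.00341). Tanycytes, which line the same ventricle, had only 9.83, 7.94, 15.8 and 13.4 CPM, a mean of 11.8 ± 3.53 CPM.

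Hey2 (chr10:30832359-30842801, minus strand), the related repressor known from arteries, was highest in tanycytes, with a mean of 46.3 ± 7.76 CPM. It had 38.5 ± 7.63 CPM in astrocytes, 29.2 ± 4.50 in ependymal cells, 28.7 ± 10.4 in endothelial cells and 24.9 ± 12.6 in OPC. None of the neighbours among these 5 types was called different, and the mice of each neighbouring pair overlapped. Over the whole stretch, tanycytes were called higher than OPC (log2 fold change 1.205 ± 0.244, adjusted p = 1.18e-05), in 3 of 4 mice and with overlap, mouse 4 having 36.3 CPM in tanycytes and 36.9 CPM in OPC. COP had 11.9 ± 7.15 CPM, microglia 5.85 ± 7.27 and oligodendrocytes 5.50 ± 4.58.

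Pairs of types were then compared within the same mice. A gene was called where its p, adjusted over all genes tested, was below 0.05 and its log2 fold change exceeded 1 in size. Members that had too few counts in both types to be tested are named with each comparison. Of the 70 pairs of neighbours in the members' orders of levels, 8 were called and 28 could not be tested, and in 57 of them the mice of the types overlapped. Neighbours were picked by sorting the types on their mean level, which by itself makes calls few and overlap common. No share over all genes was computed for such neighbours. Over all 28 pairs of types, neighbours or not, 34.3% of all gene tests were called. Notch1 was called in 17 of the 28 pairs in which it was tested, Notch2 in 19 of 25 and Notch3 in 13 of 13. Dll1 was called in 9 of 9, Jag1 in 12 of 19 and Dner in 16 of 25. Hes1 was called in 22 of 28, Hes5 in 12 of 13, Hey1 in 15 of 22 and Hey2 in 12 of 21. Together, 147 of 203 member tests (72.4%) were called. A member near 0 in 1 type of a pair could be tested only through its level in the other, so these counts are a description.

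**Figure D2:**
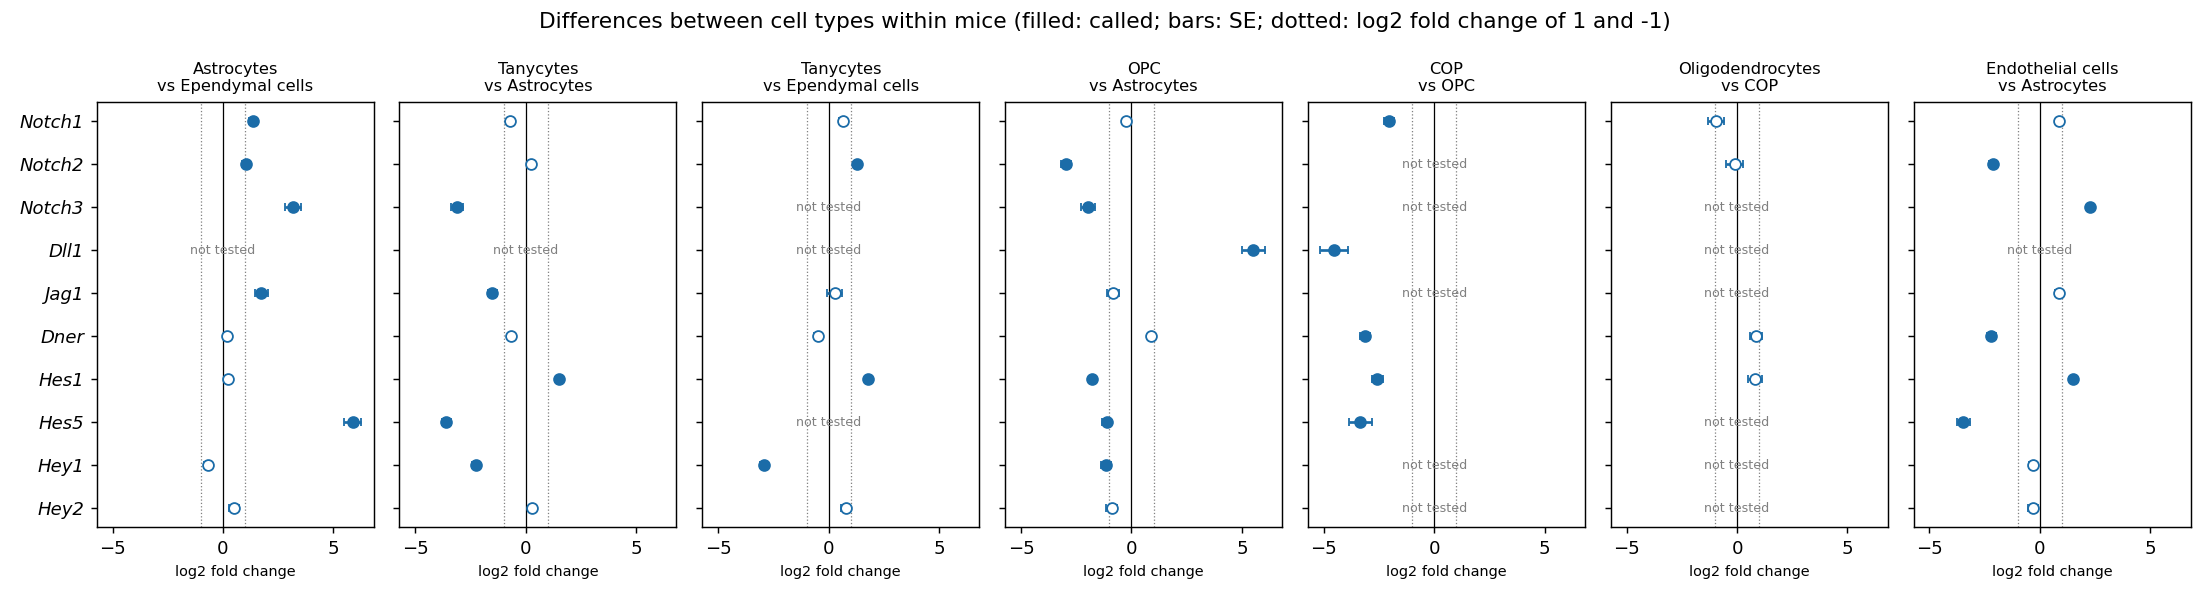
Log2 fold change (x axis, first-named type over the second, bars SE) of the 10 genes (y axis) in 7 comparisons of cell types in 4 mice; filled points are called and dotted lines mark the limits of 1 and -1. Between COP and OPC, all 5 genes tested lie left of the lower limit, from -4.52 for Dll1 to -2.05 for Notch1.

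Astrocytes and ependymal cells, 2 glial types derived from radial glia, differed in the receptors, in Jag1 and in Hes5. Notch1 (log2 fold change 1.34 ± 0.16), Notch2 (1.03 ± 0.15), Notch3 (3.17 ± 0.37), Jag1 (1.73 ± 0.29) and Hes5 (5.87 ± 0.38) were higher in astrocytes, the largest adjusted p being 3.13e-05. Thus 5 of the 9 members tested were called higher and 0 lower, where 33.2% of all 9564 genes tested were called, 14.6% higher and 18.7% lower. The values for Dner (0.18 ± 0.15), Hes1 (0.23 ± 0.17), Hey1 (-0.69 ± 0.19) and Hey2 (0.49 ± 0.21) did not pass, and Hey1 alone among them had an adjusted p below 0.05. Dll1 was not tested. The Notch2 call was lost without mouse 4 (0.97) and when all types were fitted jointly (1.00 after rounding, just under the limit).

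Tanycytes differed from astrocytes mainly by a lower level of Notch3, Jag1, Hes5 and Hey1 and a higher level of Hes1. Hes1 was 1.51 ± 0.11 higher on the log2 scale (adjusted p = 2.88e-14), in 4 of 4 mice. Notch3 was at -3.11 ± 0.27, Jag1 at -1.51 ± 0.19, Hes5 at -3.60 ± 0.19 and Hey1 at -2.25 ± 0.19, all 4 lower in each mouse. That made 1 member higher and 4 lower of 9 tested, where 22.3% of 10917 genes were called, 10.8% higher and 11.5% lower. Notch1 (-0.74 ± 0.12, adjusted p = 1.44e-06) and Dner (-0.67 ± 0.12, adjusted p = 1.17e-05) were lower in every mouse but under the limit, and Notch2 (0.25 ± 0.11) and Hey2 (0.30 ± 0.15) did not pass. Dll1 was not tested. The targets therefore did not move together: Hes1 was higher, Hes5 and Hey1 were lower, and Hey2 was not called.

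Against ependymal cells, tanycytes had more Notch2 and Hes1 and less Hey1. Notch2 was higher by 1.30 ± 0.14 (adjusted p = 1.39e-11) and Hes1 by 1.79 ± 0.10 (adjusted p = 4.74e-23) on the log2 scale, both in 4 of 4 mice although the ranges of the mice overlapped. Hey1 was lower, at -2.93 ± 0.20 (adjusted p = 2.44e-19), with no overlap. Of 7 members tested, 2 were called higher and 1 lower, where 21.5% of 9855 genes were called, 7.37% higher and 14.1% lower. Notch1 (0.64 ± 0.17, adjusted p = 0.00153), Dner (-0.49 ± 0.15, adjusted p = 0.00589) and Hey2 (0.77 ± 0.20, adjusted p = 0.00105) differed in the same direction in every mouse but stayed under the limit, and Jag1 (0.28 ± 0.34, adjusted p = 0.533) did not pass. Notch3, Dll1 and Hes5 were not tested. Without the filter on low counts, and in the joint fit of all types, 5 members were called, the additional ones being Dll1 (lower in tanycytes) and Hes5 (higher), each at 14.4 CPM or less in every mouse of both types.

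OPC differed from astrocytes in 6 of 10 members, all of which were tested. Dll1 was higher in OPC (5.52 ± 0.51, adjusted p = 1.84e-15). Notch2 (-2.96 ± 0.22), Notch3 (-1.97 ± 0.33), Hes1 (-1.76 ± 0.14), Hes5 (-1.13 ± 0.19) and Hey1 (-1.14 ± 0.23) were lower, each in 4 of 4 mice. So 1 member was higher and 5 were lower, where 24.4% of 8172 genes were called, 11.8% higher and 12.6% lower. Notch1 was at -0.25 ± 0.15 (adjusted p = 0.165), so that of the receptors it alone was not called between these types. Jag1 (-0.84 ± 0.26, adjusted p = 0.00577), Dner (0.91 ± 0.13, adjusted p = 1.14e-08) and Hey2 (-0.89 ± 0.26, adjusted p = 0.00329) stayed under the limit. Jag1 passed it on sums thinned to equal totals (-1.06) and without mouse 34 (-1.17), Dner on thinned sums (1.03) and without mouse 4 (1.01), and Hey2 without mouse 4 (-1.11).

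Between OPC and COP, the step at which precursors leave the cell cycle and commit to myelination, every member with enough counts for a test was lower in COP. Notch1 fell from 112, 94.3, 161 and 115 CPM in OPC of mice 3, 4, 30 and 34 to 24.1, 23.8, 38.3 and 25.4 CPM in COP (log2 fold change -2.05 ± 0.24, adjusted p = 5.30e-14). Hes1 fell from 67.9, 197, 157 and 110 CPM to 10.0, 54.3, 9.57 and 7.24 CPM (-2.58 ± 0.26, adjusted p = 1.57e-17). Hes5 was at 0 to 9.57 CPM in COP (-3.34 ± 0.54), Dner at 14.5 to 28.1 CPM (-3.12 ± 0.22) and Dll1 at 0 to 4.79 CPM (-4.52 ± 0.63). No mouse overlapped between the types for any of these 5 genes. Thus 5 of 5 members tested were called lower and 0 higher, where 26.2% of 6010 genes were called, 11.0% higher and 15.2% lower. A member could be tested only through its level in OPC where it was near 0 in COP, so the count of 5 is a description. Notch2, Notch3, Jag1, Hey1 and Hey2 were not tested, and Notch2 had the same mean level in both types to within the SD.

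From COP to oligodendrocytes, the myelinating cells, no member was called. Of the 4 members tested by edgeR, 3 had an unadjusted and an adjusted p below 0.05 but stayed under the limit on the log2 fold change: Notch1 (-0.95 ± 0.36, adjusted p = 0.0215), Dner (0.86 ± 0.28, adjusted p = 0.00866) and Hes1 (0.81 ± 0.33, adjusted p = 0.0322). Notch2 was at -0.10 ± 0.38 (adjusted p = 0.845). Notch3, Dll1, Jag1, Hes5, Hey1 and Hey2 were not tested. Over all 7293 genes tested, 27.6% were called, 14.3% higher and 13.3% lower. DESeq2 likewise called 0 members. Single members were called when mouse 3 (Dner), mouse 4 (Notch1) or mouse 30 (Hey2) was left out, without mouse as a block (Notch1) and in the joint fit (Hey2).

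The endothelial label had more Notch3 and Hes1 than astrocytes, and less Notch2, Dner and Hes5. Notch3 was higher by 2.28 ± 0.16 (adjusted p = 9.48e-28) and Hes1 by 1.51 ± 0.10 (adjusted p = 3.97e-29) on the log2 scale. Notch2 was at -2.13 ± 0.20, Dner at -2.19 ± 0.22 and Hes5 at -3.47 ± 0.29, without overlap of mice. So 2 members were called higher and 3 lower of 9 tested, where 36.0% of 8860 genes were called, 17.9% higher and 18.1% lower. Notch1 (0.88 ± 0.12) and Jag1 (0.87 ± 0.19) were higher in each mouse but under the limit, and Jag1 passed it without mouse 3 (1.06) and in DESeq2 (1.02). These values are for the whole label, including its cells with mural markers, which are set apart below. Hey1 (-0.31 ± 0.20) and Hey2 (-0.32 ± 0.23) did not pass, and Dll1 was not tested.

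The endothelial label also held cells with mural markers, and most Notch3 UMIs of the label lay in them. Of its 1266 cells, 552 (43.6%) had UMIs of at least 2 of 8 mural genes, and 382 had none. In the cells with at least 2, Notch3 reached 308, 307, 259 and 287 CPM in the respective mice, a mean of 290 ± 23.3 CPM, and in the cells with none it was at 0, 50.3, 0 and 15.6 CPM, a mean of 16.5 ± 23.7 CPM from 4 UMIs. The level in the cells with none was below that of astrocytes in mice 3, 30 and 34 and above it in mouse 4. The cells with at least 2 mural markers held 90.5% of the Notch3 UMIs of the label, against 53.8% of all its UMIs. Hey2 had 85.2% of its UMIs and 46.3 ± 17.6 CPM in those cells, against 8.49 ± 9.87 CPM in cells with none, from 3 UMIs.

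Hes1 had 1039 ± 280 CPM in cells with at least 2 mural markers and 1089 ± 417 CPM in cells with none, and Notch1 had 259 ± 38.5 against 158 ± 62.7 CPM. Jag1 had 67.5% of its UMIs and 82.3 ± 29.1 CPM in cells with at least 2, against 38.4 ± 33.0 CPM in cells with none, from 17 UMIs. In the cells with none, Jag1 was at 56.7, 0, 73.6 and 23.3 CPM in mice 3, 4, 30 and 34. That was below the astrocytes in mice 4 and 34 and above them in mice 3 and 30. Cells with at least 2 mural markers still had the endothelial genes Flt1 (2306 ± 163 against 2520 ± 136 CPM in cells with none) and Pecam1 (350 ± 6.06 against 388 ± 87.1 CPM), and 94.6% of them had UMIs of at least 2 endothelial genes. They were deeper, with a median of 1439 UMIs against 857.5, and had a median doublet score of 0.070 against 0.054. Depth enters the split itself, since a deeper cell shows more markers, and the part of depth or of doublets in these values was not tested.

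**Figure D3:**
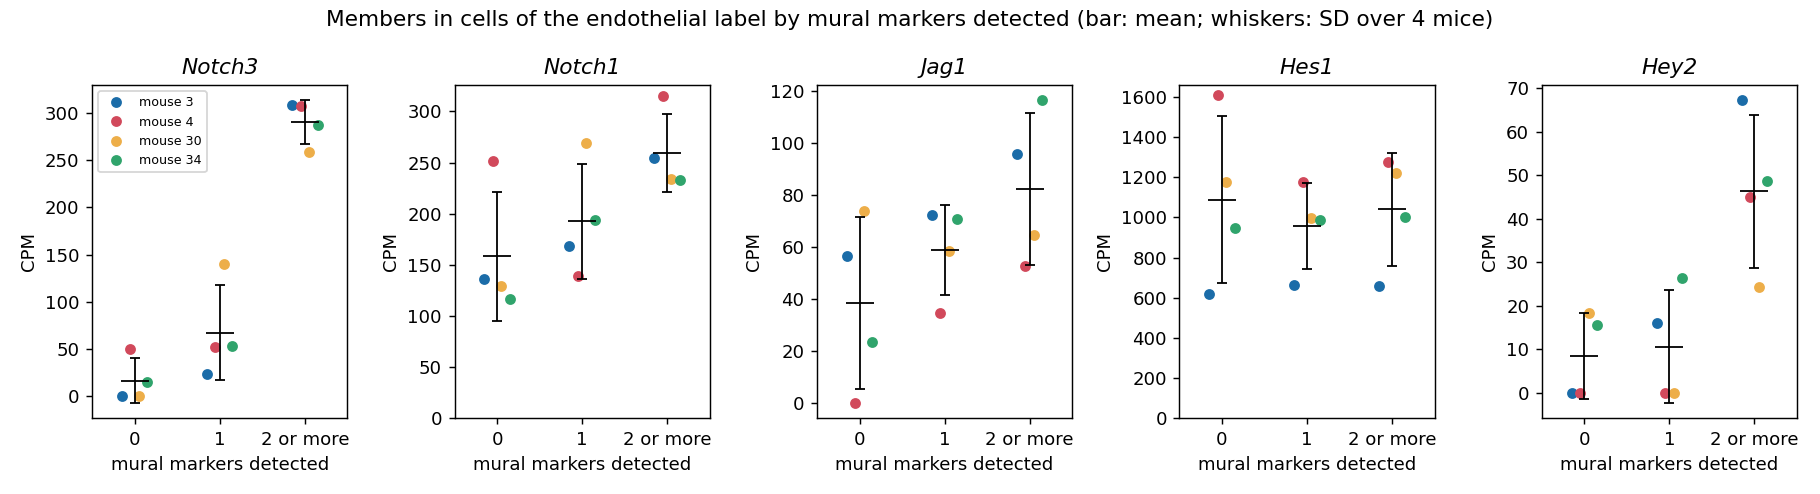
Level in CPM (y axis) of 5 members in cells of the endothelial label with 0, 1, or 2 or more of 8 mural markers detected (x axis), a point per mouse, with mean and SD. Notch3 rises from 16.5 to 290 CPM and Hey2 from 8.49 to 46.3 CPM, whereas Hes1 stays between 956 and 1089 CPM.

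The share of cells with a UMI was measured after each cell had been thinned to 500 UMIs, which left out 1 OPC. Hes1 was detected in 32.6% ± 11.8 of tanycytes (SD, n = 4) and 31.6% ± 6.63 of endothelial cells, against 0.538% ± 0.724 of COP, the lowest type. Without thinning these shares were 50.2%, 56.5% and 2.12%, with median depths of 1143, 1064 and 1771 UMIs. Hes5 was detected in 3.70% ± 0.302 of astrocytes and 2.43% ± 0.545 of OPC, against 0.209% ± 0.242 of ependymal cells (7.19%, 4.59% and 0.209% unthinned, median depths 851, 1020 and 1131). Dll1 was detected in 2.27% ± 1.15 of OPC against 0.0577% ± 0.0694 of astrocytes (4.55% and 0.107% unthinned). Notch3 was detected in 7.16% ± 2.36 of cells of the endothelial label, 1.72% ± 0.285 of astrocytes and 0.179% ± 0.221 of ependymal cells (17.1%, 3.13% and 0.551% unthinned), so the astrocyte share was above that of the lowest type. At 500 UMIs per cell, most cells of even the highest type had no UMI of any given member.

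VLMC were too few for a test, with 6, 12, 44 and 6 cells in mice 3, 4, 30 and 34 and 124361 UMIs in all. Hes1 was found there with 56 UMIs, at 536, 861, 297 and 718 CPM in the same mice, a mean of 603 ± 243 CPM, and Notch2 with 15 UMIs, a mean of 162 ± 61.8 CPM. Dll1, Hes5 and Hey2 had 0 UMIs, which allows a level of up to 24.1 CPM (3 counts of the pooled total). The other 5 members had 1 or 2 UMIs each.

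Within the single group, mice differed in Hes1, Notch2 and Jag1. Hes1 was lowest in mouse 3 and highest in mouse 4 in tanycytes, ependymal cells, OPC and endothelial cells, with a ratio of highest to lowest mouse of 3.50 in tanycytes, 4.22 in ependymal cells and 2.02 in endothelial cells. In astrocytes, mice 3 and 30 were both at 276 CPM and mice 4 and 34 at 389 and 387 CPM. Notch2 was higher in mice 3 and 34 than in mice 4 and 30 in astrocytes, tanycytes and ependymal cells, and Jag1 in astrocytes, tanycytes and endothelial cells. The same mice, 3 and 34, had deeper cells (medians of 1205 and 1208 against 958 and 932 UMIs in tanycytes), but in astrocytes the medians were close (829.5 and 866 against 888 and 857). Immediate early genes, which rise with stress and dissociation, and the nuclear RNA Malat1 were looked at after these values were seen. In astrocytes, mice 3 and 34 had 1628 and 1258 CPM of Fos against 558 and 398 CPM in mice 4 and 30, 285 and 287 against 164 and 96.1 CPM of Egr1, and 75394 and 78086 against 45075 and 56216 CPM of Malat1. In tanycytes, Fos was at 911, 1198, 926 and 2226 CPM in mice 3, 4, 30 and 34, which is another order than that of Notch2. Fos, Junb, Egr1 and Ier2 were each lowest in mouse 3 in tanycytes and in ependymal cells, as Hes1 was, with Junb at 41.8 CPM in mouse 3 tanycytes against 152 to 163 CPM in the other mice. In endothelial cells, where Hes1 was also lowest in mouse 3, these 4 genes were each lowest in mouse 30. The part of depth, stress or RNA quality in the mouse differences was not tested, and with 1 group the mice have no labelled condition to set them apart. By contrast, Hes5 in astrocytes varied by a ratio of only 1.15 between the highest and lowest mouse.

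**Figure D4:**
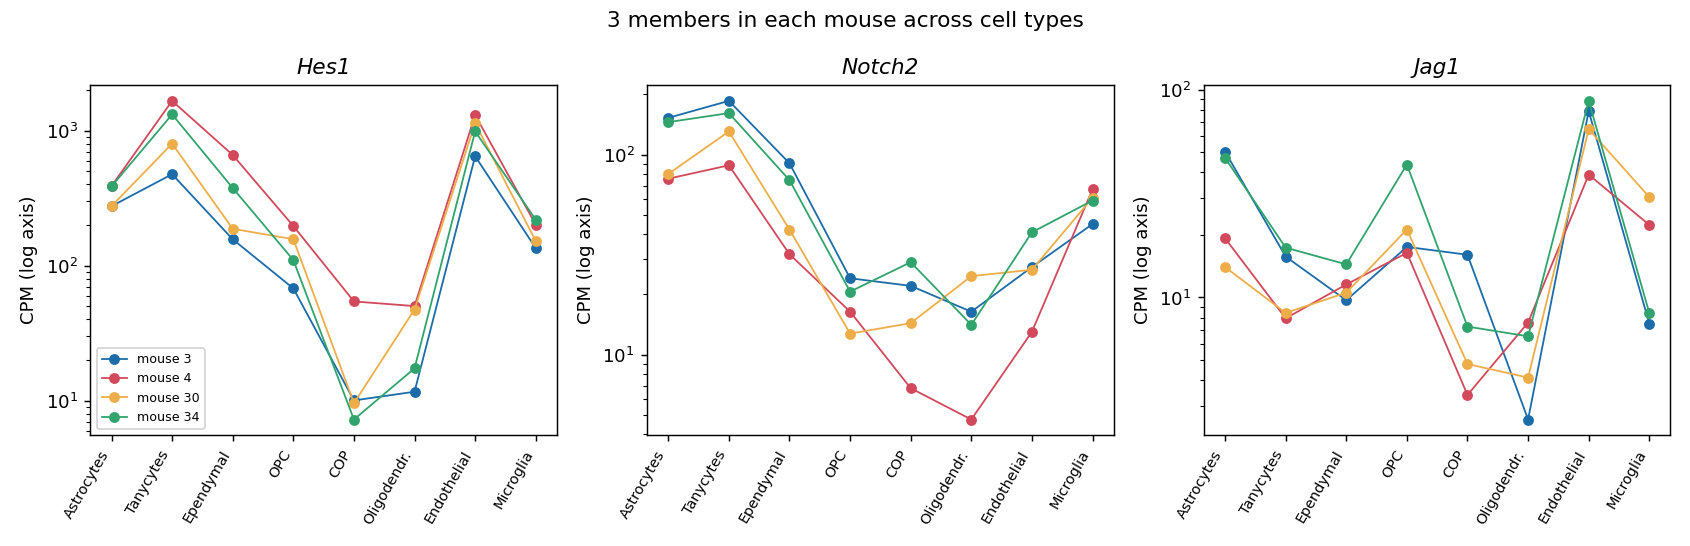
Level in CPM (y axis, log scale) of Hes1, Notch2 and Jag1 across 8 cell types (x axis), with each mouse as a colour; lines only join the points of a mouse. For Hes1, mouse 3 is lowest in tanycytes at 476 CPM and mouse 4 highest at 1665 CPM, and the order of these mice is the same in ependymal and endothelial cells.

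The rest of the pathway was covered by 44 other genes in 7 sets. Between tanycytes and astrocytes, 36 were tested, 1 was called higher and 5 lower, where 22.3% of all genes tested were called. The leading genes were Nrarp (-3.74 ± 0.16), a target that feeds back on Notch, Heyl (-3.69 ± 0.20), a Hey-family target, and Lfng (-2.60 ± 0.14), which adds sugars to Notch receptors. In astrocytes Nrarp had 101, 153, 170 and 133 CPM in mice 3, 4, 30 and 34, and in tanycytes it had 8.35 to 14.7 CPM. The same 3 genes led the calls between astrocytes and ependymal cells (33 tested, 6 higher and 3 lower in astrocytes, against 33.2% of all genes called): Nrarp 3.77 ± 0.21, Heyl 3.58 ± 0.25 and Lfng 1.99 ± 0.16. They also led between OPC and astrocytes (30 tested, 0 higher and 5 lower, against 24.4% of all genes called): Lfng -3.53 ± 0.25, Heyl -2.83 ± 0.26 and Nrarp -1.85 ± 0.18.

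Between tanycytes and ependymal cells, 34 of the 44 were tested, with 1 called higher and 2 lower, where 21.5% of all genes were called. These were Dlk1, an atypical ligand (2.02 ± 0.33), Maml2, a coactivator of the nuclear complex (-1.31 ± 0.16), and Aph1b, a subunit of gamma-secretase (-1.15 ± 0.19). Between COP and OPC, 21 were tested, where 26.2% of all genes were called, and the 2 called lower in COP were Nrarp (-2.35 ± 0.46) and Fbxw7 (-1.11 ± 0.40), which marks the cleaved receptor for degradation. Between oligodendrocytes and COP, 24 were tested, where 27.6% of all genes were called, and the calls included Maml2, lower in oligodendrocytes (-3.04 ± 0.26), and Neurl1a, which acts in ligand endocytosis and was higher (1.47 ± 0.41).

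In endothelial cells against astrocytes, 37 of the 44 were tested, with 7 called higher and 7 lower, where 36.0% of all genes were called. Dll4, the Delta ligand of sprouting vessels, led at 41.1, 39.0, 30.4 and 54.0 CPM in endothelial cells of mice 3, 4, 30 and 34 against 1 UMI in all astrocytes (log2 fold change 7.05 ± 0.60), and the ratio of the pooled levels was 240.2 (95% exact interval 41.8 to 9614). Mfng, which like Lfng adds sugars to the receptors (6.14 ± 0.50, pooled ratio 89.8, interval 29.7 to 444), and the ligand Jag2 (5.44 ± 0.52) followed. The receptor Notch4, known as an endothelial receptor, was called as well (4.04 ± 0.46) and is named after its values were seen, because it completes the receptors. Of the 7 genes called higher in endothelial cells, 3 were ligands or receptors, while Lfng and Nrarp were among the 7 called lower, as Hes5 was. In all astrocytes, Dll4, Mfng, Jag2 and Notch4 held only 1, 3, 4 and 11 UMIs. These genes could be tested only through their level in endothelial cells, so the count of 3 is a description.

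The genes whose levels were most like each member's were found by Pearson's r of log2(CPM + 10) over the 32 sums of 8 types and 4 mice, which share libraries by mouse and depth by type. Notch3 was most like Atp13a5 (r = 0.95), Slco1c1 (0.95) and Id1 (0.94), and Hes5 most like Ntm (0.92), Kcnk1 (0.91) and Gpc5 (0.91). Hey1 was most like Pitpnm2 (0.90), Baiap2 (0.84) and Dmd (0.84), and Hes1 most like Pitpnc1 (0.90), Tgfb2 (0.89) and Gsta4 (0.88). Notch1 was most like Lpp (0.87), Alpl (0.85) and Timp3 (0.83), and Dll1 most like Pcdh20 (0.87), Shisa7 (0.86) and C1ql2 (0.86). Dner was most like Adgra1 (0.86), Nrxn3 (0.86) and Cdo1 (0.86), Hey2 most like Sdf2 (0.85), Sdc2 (0.84) and Per3 (0.83), and Notch2 most like Slc7a11 (0.83), Mapk4 (0.82) and Cd63 (0.81). Jag1 was most like Inpp1 (0.84), Id3 (0.83) and Notch1 (0.81), the only case in which a member was among the 3 nearest genes of another. With 6579 or 6580 candidate genes, these values are a description.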

How the data were processed

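The deposited counts were whole UMI counts per gene and cell, made with 10x Genomics 3′ v2 chemistry. The submitters' processing notes name Cell Ranger 1.2, Seurat and the builds GRCm38, mm10 and GRCh38, without saying which was used here. The authors deposited cell type labels, a mitochondrial percent (at most 20.0% here) and a doublet score as a fraction from 0 to 1. Cells had at least 487 UMIs. Cells of the R50E mice were kept, and 50172 cells of 12 other libraries and the authors' depth-corrected counts were not used. Mice 12 and 37 had no cells in the table and were not analysed here.

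Counts were summed per mouse and type, with 1 sample per mouse, and tested in R 4.3.3 by quasi-likelihood F tests (edgeR 4.0.16, TMM, filterByExpr, mouse as a block, Benjamini-Hochberg adjustment over all genes tested, two-sided). The pairing came from the mice, since both types of a pair were taken from the same animals. A pair of types needed 20 cells of each in at least 3 mice. SEs were derived from the F statistic. Doublets were not removed beyond what the authors had done, and intervals and floors cover counting error only.

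All 10 members were named in each comparison, and of the 44 other pathway genes up to 3 called genes with the largest log2 fold change in each, except for 1 gene that is not reported here. Likeness was searched among genes whose mean reached 50 CPM in any type. Positions are from GENCODE M21 (GRCm38). The members and lists were chosen with earlier results of these data known. The alternatives were another scaling (RLE), DESeq2 1.42.0, no filter on low counts, no mouse block, a joint fit, leaving out each mouse, thinned sums, and leaving out the 10% of cells of each mouse with the highest doublet scores. Levels were also computed on TMM-scaled totals and as means over cells, shares at 1000 UMIs, and the mural split at 3 markers.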

Additional observations from a re-analysis of the deposited data

Results flagged for a closer look

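Among 80 sets of 4 mice (10 members in 8 types), 5 held a value far from the other 3 mice, where chance gives about 1 in 20. Notch1 in COP was 38.3 CPM in mouse 30 (8 UMIs) and 23.8 to 25.4 CPM in the others. Hes1 in COP was 54.3 CPM in mouse 4 (16 UMIs) and 7.24 to 10.0 CPM in the others. Hes5 in tanycytes was 8.96 CPM in mouse 34 (16 UMIs) and 5.27 to 5.67 CPM in the others. Hey2 in oligodendrocytes was 12.3 CPM in mouse 30 (6 UMIs) and 2.84 to 3.79 CPM in the others. Dll1 in microglia was 7.49 CPM in mouse 3, from 1 UMI, and 0 in the others. Of these 5, the Hes1 value lay in the mouse that also had the most Hes1 in tanycytes, ependymal and endothelial cells.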

How the results depend on the processing

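Over 53 member values in the 7 comparisons and their alternatives, 548 of 561 recomputed values kept direction and call, 10 gained a call, 2 lost it and 1 reversed. The 2 losses were those of Notch2 between astrocytes and ependymal cells, and the reversal was Notch2 between oligodendrocytes and COP without mouse 34 (0.14, adjusted p = 0.826), which ran from -0.34 to 0.14 as single mice were left out (without mouse 3 it was not tested) and was not called in any of these fits. RLE scaling moved no member by more than 0.026 on the log2 scale. Members called between tanycytes and ependymal cells numbered 5 without the filter on low counts and 5 in the joint fit, against 3. Between COP and OPC they numbered 3 of 3 tested on thinned sums, against 5, since fewer genes could be tested. Between oligodendrocytes and COP, 0 were called in the main analysis, 1 with no replicate block, 1 in the joint fit, and from 0 to 1 with a mouse left out. Without the block no other count of called members or genes moved by over 1.5 times. Genes called between endothelial cells and astrocytes fell to 2009 on thinned sums, of 5129 tested, from 3191. Notch3 in cells of the endothelial label with at least 3 mural markers was 338 CPM, against 290 CPM with at least 2, and the cause was not tested. Of 530 recomputed levels, 9 moved by more than the SD between mice, 6 on TMM-scaled totals (not computed for VLMC) and 3 as means over cells. Thinning to 1000 UMIs moved 66 of 90 shares by more than the SD, and also left out 9620 of 20151 cells, 4299 of them astrocytes, against 1 cell at 500 UMIs, so that depth per cell and the choice of cells cannot be told apart there. Depth limits Dll1, Hes5 and Notch3 outside their highest types, where several sums held fewer than 10 UMIs.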
